A study of Caenorhabditis elegans with 5 samples.

Results

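The X chromosome carried 1218 of the 6159 peaks called for tagged ALR-1 in larvae of the nematode Caenorhabditis elegans, in the authors' combined list. These peaks were chosen by chromosome alone: every row of that list placed on X was kept, with no use of a measured value. The replicate 1 list held 341 peaks on X of 1628 in all, and the replicate 2 list held 802 of 3994. The data came from chromatin immunoprecipitation and sequencing (ChIP-seq), in which DNA crosslinked to a protein is precipitated with an antibody, sequenced and compared with DNA of the same extract before precipitation, the input. The animals were L2 larval hermaphrodites of strain OP200, grown at 20 °C. They carried the mutation unc119(ed3) and the insertion wgIs200, which holds the fusion alr-1::TY1 EGFP FLAG C beside a copy of unc119. All libraries shared this strain, stage and temperature, with no untagged strain among them. The labels put 3 libraries in the ChIP group, 2 of them numbered replicate 1 and 1 numbered replicate 2. They put 2 libraries in the input group, both numbered replicate 1. The transgene was brought in by bombardment and the line was outcrossed 3 times, so the fusion protein came from 1 transgenic line. Whole animals were fixed with 2% formaldehyde, 10% of the extract was kept as input and a goat antibody to GFP was used for precipitation. The peaks pool all tissues and do not tell in which cells ALR-1 was bound.

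ALR-1 is a homeodomain protein of the aristaless family, a group of transcription factors that recognise short AT-rich sites. In the worm it is known from the differentiation of sensory neurons of the head, of touch receptor neurons and of motor neurons. The X chromosome is the sex chromosome of this species. Hermaphrodites carry a pair of X chromosomes whose expression is lowered by dosage compensation. Genes on the worm autosomes crowd in the chromosome centres, whereas those on X are spread more evenly, and X holds few genes of the germline. The alr-1 gene is itself placed on X by the RefSeq gene table.

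The deposited lists give a position and a q-value for each peak. Positions are on the WormBase WS190 genome build. Strength here means −log10 of the authors' q-value, so that a larger number is a smaller q. It moves with sequencing depth and with enrichment alike, so it only orders peaks within a list, and strengths of different lists stand side by side as descriptions. Read totals were not used here and the depth behind each peak is unknown. RefSeq's gene positions are on WBcel235, a later build, so no peak was assigned to a gene or a promoter, and no sequence of a peak is shown. Intervals beside a share are Wilson 95% intervals and those beside a median are order-statistic 95% intervals. Both cover counting error only, and neighbouring peaks are not independent.

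The peaks on X ran from base 117095 to base 17644153, a stretch of 17.5 Mb that stood for the length of the chromosome. Over that stretch combined peaks numbered 69.5 per Mb and covered 610 kb, or 3.48% of the sequence. Replicate 1 had 19.5 peaks per Mb over 171 kb and replicate 2 had 45.8 over 398 kb. Among the autosomes the combined density ran from 45.3 per Mb on V to 82.8 on I, with a mean of 61.6. The X density was 1.13 times that mean (exact Poisson 95% interval of the X count 1.07 to 1.19). This interval treats peaks as independent and the autosome mean as fixed, so it leaves out the spread among the autosomes. X lay inside the range of the autosomes, second to I. An exact permutation test that moved the X label over the 6 chromosomes gave p = 0.667, two-sided. With 1 X chromosome and 5 autosomes this exact test cannot give a p below 0.167. Over 27 main comparisons made with it, the smallest Benjamini-Hochberg adjusted exact p was 0.643. The tests of width by strength and of the alternative settings are not among these 27. Given the lower limit of the test, no comparison could pass 0.05.

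Counted in windows of 1 Mb, the peaks were thinnest at the left end of X. The first 2 windows of 1 Mb held 32 and 33 combined peaks. The next 15 full windows held between 54 and 90, with a median of 75. The window with most combined peaks was the one from 4 to 5 Mb, with 90, and it held 26 replicate 1 and 60 replicate 2 peaks. The replicate lists had their highest counts elsewhere, replicate 1 with 27 from 11 to 12 Mb and replicate 2 with 63 from 12 to 13 Mb. Of those 27 replicate 1 peaks, 8 lay in the stretch at 11123547 to 11138436, which holds the strongest X peak. Without that stretch the highest replicate 1 count was 26, from 4 to 5 Mb and again from 6 to 7 Mb. The full window with fewest peaks was the first in all 3 lists, with 32, 5 and 16. Replicate 1 and replicate 2 thus thinned out at the same end as the combined list. The right end showed less of this: the window from 16 to 17 Mb had 66 combined peaks.

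The central 40% of the stretch held 506 of the 1218 combined peaks on X, or 41.5% (38.8 to 44.3%), close to its share of the length. The left 30% held 335 peaks, or 27.5% (25.1 to 30.1%), and the right 30% held 377, or 31.0% (28.4 to 33.6%). The 5 autosomes had 52.6% to 59.6% of their peaks in the centre, all above X. The replicate lists had the same order: X had 44.3% (39.1 to 49.6%) in replicate 1 against 58.4% to 65.6% on the autosomes, and 40.5% (37.2 to 43.96%) in replicate 2 against 52.98% to 60.6%. X stood lowest of the 6 chromosomes in every list, and the exact permutation test gave p = 0.167 in each, the smallest it allows, which is above 0.05.

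**Figure D1:**
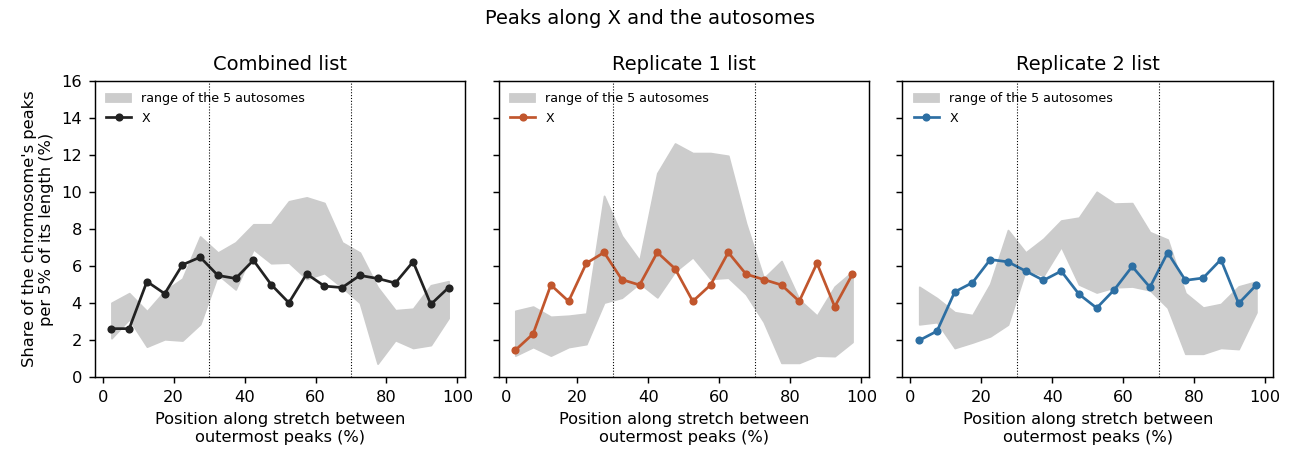
Share of a chromosome's peaks in each 5% of its length (y axis, %) against position along the stretch between its outermost peaks (x axis, %), for the combined, replicate 1 and replicate 2 lists. Points joined by a line are X, the grey band spans the 5 autosomes, and dotted lines mark the central 40%. X holds 41.5%, 44.3% and 40.5% of its peaks between the dotted lines, below the autosomes in each list. It runs above the band in parts of both arms, and in or below the band over the first 10% of its length.

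In peaks per Mb, X differed from the autosomes in opposite directions in the arms and in the centre. In the right 30% the combined density was 71.7 peaks per Mb on X and 25.2 to 58.6 on the autosomes. Replicate 1 had 19.4 there against 6.06 to 11.9, and replicate 2 had 49.8 against 16.4 to 38.9, so X was above every autosome in all 3 lists. In the left 30% X had 63.7 combined peaks per Mb. That was below the 66.1 of chromosome I and above the other 4 autosomes. In the replicate lists X was above every autosome on the left side too, with 16.7 per Mb against 7.87 to 12.9 in replicate 1 and 40.9 against 22.3 to 34.0 in replicate 2. In the central 40% X had 72.2 combined peaks per Mb, and 4 of the 5 autosomes were denser, up to 113 on I. These densities by part were not tested on their own.

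Strength, width and recurrence were similar across the 3 parts of X. The median combined strength was 3.70 in the left 30% of X, 3.97 in the centre and 3.85 in the right 30%. The median width was 392, 370.5 and 391 bp in the same order. The share of peaks found in both replicate lists was 19.4% (15.5 to 24.0%), 21.3% (18.0 to 25.1%) and 19.6% (15.9 to 23.9%), and these intervals overlap. In the thin left end, 3 of the 32 peaks of the first 1 Mb window were in both lists and 16 were in neither. In the second window 7 of 33 were in both and 10 in neither.

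Most combined peaks on X were narrow and weak, with a long tail. The median width was 383 bp (370 to 402 bp), with an interquartile range of 263 to 577 bp. The widest peak, at 6736156 to 6745963, spanned 9808 bp and had a strength of 10.9. It overlapped 2 replicate 2 peaks and no replicate 1 peak. The second widest, at 11469548 to 11475490, spanned 5943 bp, had a strength of 17.7 and was in both lists. Peaks over 2000 bp numbered 25, or 2.05% of the X peaks, against 1.09% to 1.58% on the autosomes. Of the 25, 10 were in both replicate lists, 9 in replicate 2 alone, 3 in replicate 1 alone and 3 in neither. The stretch at 11123547 to 11138436 held 4 of the 25, all in both lists, and 21 were left without it. At the other extreme, 56 peaks were under 100 bp, or 4.60%, within the 3.15% to 4.96% of the autosomes. None of these 56 was in both replicate lists and 46 were in neither. Over all combined peaks of all chromosomes, 20.0% were in both and 33.2% in neither. The 56 were also weak, with a median strength of 2.45, and width was not separated from strength here. The 3 narrowest, at 11383372, 16008266 and 3165888 to 3165890, spanned 1, 1 and 3 bp with strengths of 2.15, 3.98 and 2.75. Only the peak at 16008266 touched a replicate peak, one of replicate 2.

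Peaks on X had the largest median width of the 6 chromosomes in the strongest 25% of every list. In the strongest 25% of the combined list, which began at a strength of 6.73, the 268 X peaks had a median width of 573 bp (520 to 617 bp), against 444 to 515 bp on the autosomes. In the strongest 25% of replicate 1 the 98 X peaks had 546.5 bp (462 to 654 bp) against 417 to 474 bp. In that of replicate 2 the 177 X peaks had 567 bp (521 to 617 bp) against 413 to 486 bp. X was the widest of the 6 chromosomes in each list, with p = 0.167 by the exact permutation test, the smallest possible. The share of these peaks over 1 kb was 15.7% on X in the combined list, within the 11.3% to 16.5% of the autosomes. It was above every autosome in replicate 1, with 18.4% against 5.66% to 14.9%, and in replicate 2, with 14.7% against 6.02% to 10.2%. Peaks were not matched for strength within each 25%. Without the strongest run of peaks, the stretch at 11123547 to 11138436, the X medians were 556.5, 522.5 and 552 bp, still above every autosome. In the second 25% X was again the widest in the combined list, with 431 bp against 362 to 400.5 bp, and in replicate 2, with 441.5 bp against 365 to 398 bp. In replicate 1 its 374.5 bp lay within the 349 to 411.5 bp of the autosomes. In the third 25% X was the narrowest in the combined list, with 305 bp against 311 to 330 bp. In the replicate lists it lay within the autosome range there, with 329.5 bp against 309 to 380 bp in replicate 1 and 359 bp against 320.5 to 382 bp in replicate 2. In the weakest 25% the order of the strong peaks did not hold. X had 285 bp in the combined list against 272 to 297 bp. It had 257 bp in replicate 1 against 291 to 330 bp, and 299 bp in replicate 2 against 289 to 306 bp. Of these 12 comparisons, 7 gave the smallest possible exact p, and no adjustment was made over them. The 7 did not share a direction. X was the narrowest in the third 25% of the combined list and in the weakest 25% of replicate 1, and the widest in the others. The combined list cannot be taken as independent of the replicate lists. Across all 1218 combined X peaks, Spearman's rho between strength and width was 0.45, a description over peaks of 1 list. It was 0.50 over the 341 peaks of replicate 1 and 0.44 over the 802 of replicate 2.

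**Figure D2:**
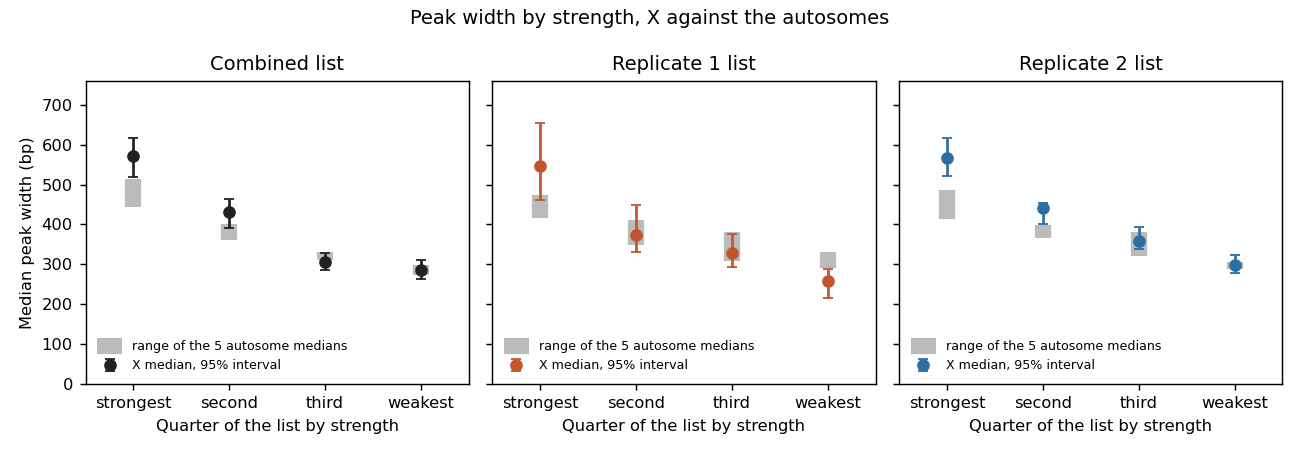
Median peak width (y axis, bp) in each 25% of a list ordered by strength (x axis, strongest to weakest), for the combined, replicate 1 and replicate 2 lists. Points are X with order-statistic 95% intervals, and grey bars span the 5 autosome medians. In the strongest 25% the X medians of 573, 546.5 and 567 bp lie above the grey bars. In the weakest 25% they lie within the bars in the combined list and replicate 2 and below the bar in replicate 1.

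In replicate 2 the X peaks as a whole were the widest and the weakest of the 6 chromosomes. Their median width was 405 bp (384 to 427 bp) against 351 to 383 bp on the autosomes, and 56 of 802 peaks (6.98%, 5.42 to 8.96%) exceeded 1000 bp, against 2.82% to 4.58%. Their median strength was 3.51 (3.32 to 3.66) against 3.79 to 3.88. Each of these 3 exact permutation p-values was 0.167, the smallest possible. Replicate 1 did not have this pattern. Its X median width was 368 bp (341 to 393 bp), within the autosome range of 353 to 390 bp, and its X median strength was 2.94 against 2.92 to 3.01. In the combined list the X median strength was 3.85 (3.67 to 4.04), above that of V and below those of the other 4 autosomes.

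The smallest q-value on X, and in the whole combined list, lay in 1 run of 4 peaks at 11123547 to 11138436. This stretch of 14.9 kb lay at 62.8% of the way along X. A run here means neighbouring peaks with gaps under 1 kb. From left to right its 4 combined peaks had strengths of 20.7, 64.5, 123 and 219. Their ranks in the whole combined list were 128, 4, 2 and 1 in the same order. Replicate 1 had 8 peaks across it, with strengths in order of 9.98, 8.54, 13.9, 4.07, 30.3, 8.21, 36.1 and 35.5. Replicate 2 had 6, with 12.9, 39.4, 9.70, 77.5, 78.0 and 85.2. Each list had its strongest peaks of the run toward the right end. The run stood alone to its right: the next combined peak was 48.9 kb away, and the next replicate 1 and replicate 2 peaks were 68.5 kb away. To its left the next combined peak was 6.39 kb away. Outside the run the highest strength on X was 57.8 in the combined list, 59.6 in replicate 1 and 29.6 in replicate 2. X held 5 of the 10 strongest combined peaks of all chromosomes, 3 of them in the run. It held 22 of the 100 strongest, near its 19.8% of the whole combined list. The run held 2.24% of the bases covered by combined peaks on X. Whether it contains alr-1, which the transgene also carries, was not determined because the builds differ.

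**Figure D3:**
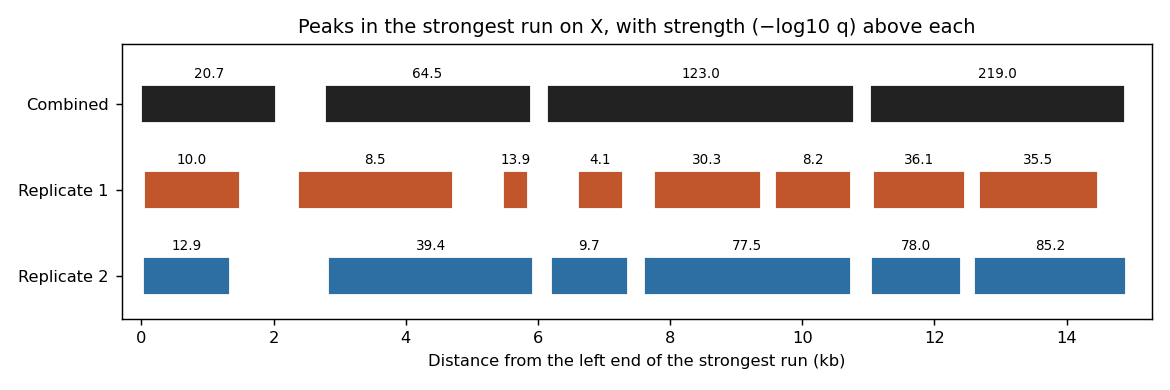
Peaks of the combined, replicate 1 and replicate 2 lists in the strongest run on X, drawn to scale by distance from its left end (x axis, kb), with the strength of each peak (−log10 of the authors' q-value) above its bar. The 4 combined peaks rise from 20.7 at the left to 219 at the right, where both replicate lists also have their highest values.

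The 10 strongest X peaks that overlapped both replicate lists were 3 peaks of that run and 7 others. The strongest of the 7 was at 16929321 to 16931993, near the right end of the chromosome, with 57.8. It went with a replicate 1 peak of 59.6, the strongest of that whole list, and with replicate 2 peaks of at most 3.54, rank 2160 in theirs. The next was at 2996511 to 2997476, with 40.6 in the combined list, 11.8 in replicate 1 and 29.4 in replicate 2. The one at 12689503 to 12690753 had 38.4, 6.02 and 29.6 in the same order. The peak at 14525398 to 14526390 had 30.4, 10.7 and 19.9. The peak at 3178732 to 3180040 had 29.7, 2.99 and 23.8, the lowest replicate 1 value of the 10, with ranks of 778 in replicate 1 and 15 in replicate 2. The peak at 4404709 to 4405231 had 29.6, 8.47 and 19.2. The last, at 7284415 to 7285236, had 29.2, 5.22 and 24.5. The peaks at 16929321 to 16931993 and 3178732 to 3180040 were thus the ones whose place in the lists differed most.

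**Figure D4:**
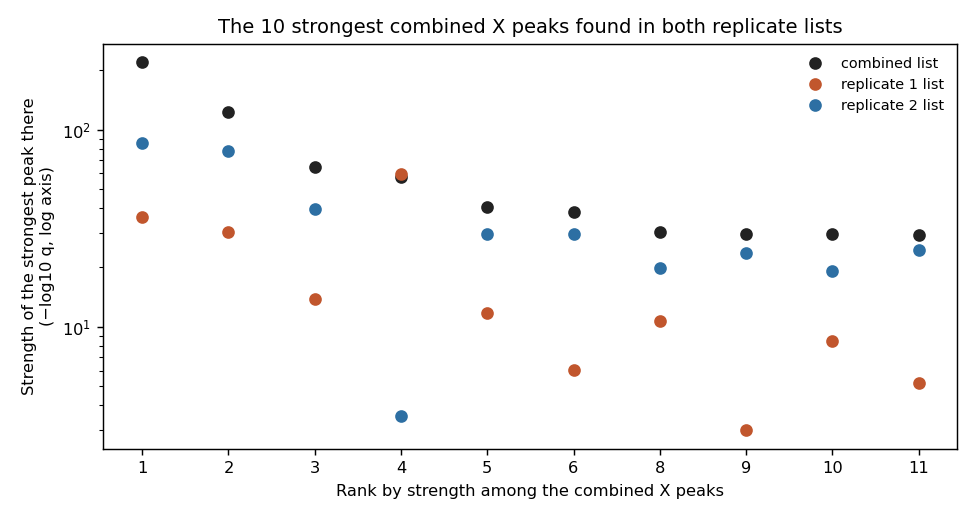
Strength of the strongest peak of each list (y axis, −log10 of the authors' q-value on a log axis) at the 10 strongest combined X peaks found in both replicate lists, ordered by rank among the combined X peaks (x axis). Replicate 2 lies above replicate 1 at all ranks shown except rank 4, where replicate 1 has 59.6 and replicate 2 has 3.54; each list has its own scale.

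The right end of X held more signal of replicate 1 alone. The replicate 1 list had a peak of strength 36.1, rank 6 in that list, that was split in the combined list into a peak at 16940123 to 16942328 with a strength of 17.6 and a peak at 16943661 to 16944583 with 15.4. The nearest replicate 2 peak was 8283 bp from the first of these. The strongest combined peak on X found with replicate 1 alone was at the other end, at 1503856 to 1505208, with a strength of 30.9. The replicate 1 peak there, at 1503785 to 1505208, had 39.7 and ranked 4 in its list, and the nearest replicate 2 peak was 1654 bp from it. The strongest combined X peaks found with replicate 2 alone were less extreme. They lay at 6571041 to 6571484 with 17.5, at 4739442 to 4739804 with 16.8 and at 15998217 to 15998627 with 15.0. Replicate 2 had 16.3, 15.7 and 13.1 at these places. The second of them was 849 bp from a replicate 1 peak, and the first was 39037 bp from one.

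At a strength of at least 10, the share of peaks that lay on X was above the share of the whole list in replicate 1. It was close to that share in replicate 2 and slightly below it in the combined list. The same cut kept 43 of 1628 replicate 1 peaks, 318 of 3994 replicate 2 peaks and 804 of 6159 combined peaks. It thus reached unlike depths of the 3 lists, and the shares do not compare 1 list with another. Of the 43 replicate 1 peaks of that strength, 17 lay on X, which is 39.5%, against 20.9% of the whole replicate 1 list. Without the strongest run it was 13 of 39, or 33.3%. In replicate 2, 63 of 318 such peaks lay on X, or 19.8%, and without the run 58 of 313, or 18.5%, against 20.1% of the whole list. In the combined list the count was 144 of 804, or 17.9%, and without the run 140 of 800, or 17.5%, against 19.8% of the whole list. At a strength of at least 20 the counts were small and leaned on the run. Replicate 1 had 6 of 15 such peaks on X and 3 of 12 without the run, and replicate 2 had 9 of 29 and 5 of 25. The combined list had 30 of 142 and 26 of 138. These shares were not tested.

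Recurrence on X was close to that of the whole list. Of the 1218 combined peaks on X, 247 overlapped a peak in both replicate lists by at least 1 bp, which is 20.3% (18.1 to 22.6%), against 20.0% of combined peaks on all chromosomes. Replicate 2 alone matched 496, or 40.7% (38.0 to 43.5%), against 41.1% overall. Replicate 1 alone matched 83, or 6.81% (5.53 to 8.37%), against 5.67% overall. Neither list matched 392, or 32.2% (29.6 to 34.9%), against 33.2% overall. The autosomes ran from 18.1% to 22.5% for both lists and from 4.65% to 6.02% for replicate 1 alone, so X was highest for the latter (exact permutation p = 0.167, the smallest possible). The libraries behind the combined list are not named in the labels or headers, so the overlap is not an independent check. Peaks in neither list ran from 28.4% to 44.4% on the autosomes, with I the highest.

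Between the replicate lists themselves, 251 of the 341 replicate 1 peaks on X overlapped a replicate 2 peak, which is 73.6% (68.7 to 78.0%), against 76.1% over all chromosomes. In the other direction 248 of 802 replicate 2 peaks, or 30.9% (27.8 to 34.2%), overlapped replicate 1, against 31.0% over all chromosomes. X lay within the range of the autosomes for both shares, with exact permutation p-values of 0.667 and 1. The replicate 1 share was near the lower end of that range, 73.0% to 80.8%, and was below every autosome under 4 of 5 alternative settings. Midpoints of shared peaks lay close together, which the choice of pairs by overlap partly fixes. No distance expected from overlap alone was computed. Over 242 X pairs of 1 replicate 1 and 1 replicate 2 peak, the midpoints were a median of 32.75 bp apart (interquartile range 13.6 to 70.0 bp), and 206 pairs, or 85.1%, were within 100 bp. The median width was 384 bp in replicate 1 and 438.5 bp in replicate 2, and replicate 2 was the wider at 148 of the 242. Widths of partners went together more closely than strengths. Spearman's rho across the pairs was 0.83 for width and 0.48 for strength, or 0.46 for strength over the 238 pairs outside the strongest run, given as descriptions over peaks of the same lists.

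Most unpartnered replicate peaks on X were more than 1 kb from the other list. The 90 replicate 1 peaks without a partner lay a median of 4506.5 bp from the nearest replicate 2 peak, and 12 of them were within 1 kb. The 554 unpartnered replicate 2 peaks lay a median of 14280.5 bp from replicate 1, and 33 were within 1 kb. For scale, neighbouring peaks on X had a median gap of 10887 bp in replicate 2 and 30188.5 bp in replicate 1. Whether these distances differ from what the density of the lists alone gives was not tested. The unpartnered peaks were weaker, with a median strength of 2.50 against 3.21 for partnered peaks in replicate 1 and of 3.05 against 5.52 in replicate 2. All partnered replicate peaks on X overlapped a combined peak. Of the unpartnered, 84 of 90 in replicate 1 and 503 of 554 in replicate 2 did.

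The strength of a combined X peak went with its class. In the strongest 10% of the X peaks, with strengths up to 219, 102 of 121 peaks were in both replicate lists and 0 were in neither. In the weakest 10%, with strengths from 2.00 to 2.26, 0 of 122 were in both and 96 were in neither. No peak below a strength of 4.31 was in both. The median strength was 9.44 for peaks in both lists (9.41 without the strongest run), 4.29 for replicate 2 alone, 3.90 for replicate 1 alone and 2.57 for neither. The median width had the same order, with 505, 417.5, 348 and 270.5 bp. The strongest peaks in neither list, at 4679303 to 4679409, 2643336 to 2643342 and 4949558 to 4950091, had 5.57, 5.21 and 4.56, and the second of them was only 7 bp wide. How much of this order comes from the way the combined list was made cannot be told apart here.

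**Figure D5:**
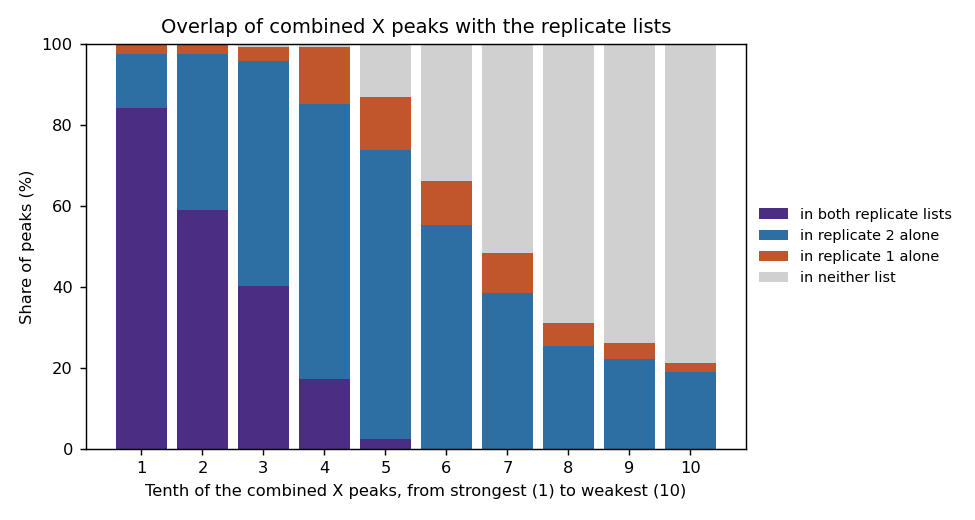
Share of combined X peaks (y axis, %) in both replicate lists, in 1 list alone and in neither, for each 10% of the 1218 peaks from strongest to weakest (x axis). Peaks in both lists make up 84.3% of the strongest 10% and none of the weakest 50%, and peaks in neither make up 78.7% of the weakest 10%.

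Neighbouring combined peaks on X were separated by a median of 6885 bp (6141 to 7678 bp), with an interquartile range of 2049 to 18129 bp. The autosome medians ran from 5602 bp on I to 9895 bp on V. From peak to peak the spacing on X was uneven: the standard deviation of the gaps was 1.35 times their mean. That ratio was slightly below the 1.38 to 1.49 of the autosomes. Of 1217 gaps, 163 (13.4%) were under 1 kb, against 12.2% to 15.5% on the autosomes. No gap was under 200 bp on any chromosome in any list, so runs hold only gaps from 200 bp up to 1 kb. The longest gap without a combined peak was 226 kb, from 1627408 to 1853564, in the thin left end, and neither replicate list had a peak in it. The next were 138 kb from 186446 to 324032 and 133 kb from 15707943 to 15840957, again with no replicate peak inside. In replicate 1 the longest gap, singled out after its value was seen, was 663 kb, from 143142 to 806507, where the combined list had 17 peaks and replicate 2 had 7. In replicate 2 it was 277 kb, from 1627391 to 1904231, which spans the longest combined gap.

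Runs of 3 or more peaks numbered 23 in the combined list and held 72 peaks, or 5.91% of the X peaks (4.72 to 7.38%), against 5.76% to 8.85% on the autosomes. Of the 23 runs, 20 had 3 peaks and 3 had 4 peaks. By place, 13 lay in the central 40% of X, 8 in the right 30% and 2 in the left 30%. After the strongest run, the longest run of 4 peaks was at 11463571 to 11475490, 11.9 kb long with strengths from 2.61 to 17.7, and the other was at 7809225 to 7813196, 3.97 kb long with strengths from 2.32 to 5.49. Peaks in runs had a median strength of 3.63, against 4.55 for the 228 peaks in pairs and 3.70 for the 918 peaks on their own. Of the 72 peaks in runs, 29 were in neither replicate list, or 40.3%, against 23.2% of those in pairs and 33.8% of those on their own. In the replicate lists runs were rarer, with 2 runs of 11 peaks on X in replicate 1 and 5 runs of 17 peaks in replicate 2. The strongest run supplied 8 of those 11 and 5 of those 17. Without it the share of X peaks in runs fell from 3.23% to 0.901% in replicate 1. The share was then 1.51% in replicate 2 and 5.60% in the combined list. These last 2 shares were just below the lowest autosome, at 1.59% and 5.76%. No run was taken out of an autosome, so this step could only lower X against them. With the run, the 3.23% of replicate 1 was above every autosome, which ran from 0% to 2.99%.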

How the data were processed

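The authors deposited 3 peak lists made with PeakSeq on WormBase WS190, per the file headers and source column, and the only value per peak is a q-value, a p-value adjusted for multiple testing by their caller. All q-values were below 0.01. The labels and headers name no PeakSeq version, aligner, matched input or way of combining replicates. Strength was computed as −log10 of the deposited q-value. Values were computed with scipy 1.17.1, pandas 2.3.3 and numpy 2.4.6 under Python 3.11.15, and plotted with matplotlib 3.10.9. Chromosome length was taken as the stretch between the outermost peaks of any list, because WS190 lengths were not used here. Overlap meant 1 bp shared. Comparisons of X with the autosomes used a two-sided exact permutation test over 6 chromosomes, since peaks are not replicates. The functions were tested on simulated data. Nothing in the labels tells if replicates came from separate cultures. The peaks named are the 10 strongest in both replicate lists, the 3 strongest in each other class, the 3 widest, the 3 narrowest, the 3 longest gaps, the 3 runs with most peaks, all peaks of the strongest run and the strongest unpartnered peak of each replicate list. Alternatives were other lists, thresholds, overlaps, gap limits and part limits, and leaving out the strongest run. The members, measures and rules were chosen with earlier results of these data known. The test of width by strength was added after its values were seen. Sequences and gene assignments were left out for lack of a matching build.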

Additional observations from a re-analysis of the deposited data

How the results depend on the processing

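Of 52 alternatives over 11 results, 24 left the value within its 95% interval. The X central share of 41.5% was below all autosomes under every alternative tried, and was 35.2% with a narrower centre, the second of 3 equal parts. The density relative to the autosome mean, 1.13, was 1.03 in the stronger 50% of the list, 1.23 without chromosome I and 1.15 to 1.22 with 1 replicate list alone. The median width of 383 bp was 485 bp in the stronger 50%, 416 bp with peaks within 1 kb merged and 368 to 405 bp with 1 replicate list alone, where replicate 1 put X inside the autosome range. The cause was not tested. The median gap of 6885 bp was 16291.5 bp in the stronger 50%, 8791.5 bp with merging and 10887 to 30188.5 bp in single lists, which hold fewer peaks. The share in runs of 5.91% was 1.23% in the stronger 50%, 1.48% with a limit of 500 bp, 19.7% with 2 kb and 2.12% to 3.23% in single lists. The share wider than 1 kb, 6.90%, was 10.5% in the stronger 50%, and 2.05% exceeded 2 kb, against 1.09% to 1.58% on the autosomes. The share in both replicate lists was 43.4% in the stronger 50% and 17.8% with reciprocal overlap of 50%. The share in neither was 1.93% and 34.98% in the same order. Of the replicate 1 peaks on X, 65.9% were shared between the stronger 50% of each list, 66.3% with reciprocal overlap, 67.4% with midpoints within 200 bp and 45.7% with replicate 2 reduced to equal length, where replicate 2 peaks were shared at 52.1%. The replicate 1 share on X was below every autosome in 3 of these 4, all but reciprocal overlap. The strongest run held 4 of 1218 combined, 8 of 341 replicate 1 and 6 of 802 replicate 2 peaks on X. Leaving out so few peaks could move most values little, and each of the 11 stayed within its interval. The removal put the share in runs and the share of replicate 1 peaks shared, 72.97%, below every autosome. The run was taken out of X alone, with no run taken out of an autosome, which could only lower X for both shares. No paired analysis was possible because the lists hold no value per library. Without read counts, an absent peak does not show absent binding.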
